A study of Ambystoma mexicanum and Ambystoma andersoni and Ambystoma maculatum with 18 samples.

Results

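The 138 most abundant RNA features of the forelimb tip of larval axolotls (Ambystoma mexicanum) are described here, out of 898057 features listed for the species and 2262193 in the tables of the 3 species of the series. A feature is an assembled piece of RNA sequence, known in the files by an ID and by no gene name. The members were chosen from the measured values. The feature with the highest mean share of the counts, Ax_TR511601_c4_g2, was set aside, each library's other counts were scaled to CPM (counts per 1000000 counts), and every feature with a mean of at least 1000 CPM over the 6 axolotl libraries was taken. Members are called by their rank in mean CPM, rank 1 being the highest. The same rule gave 109 features in A. andersoni and 100 in A. maculatum.

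The study asked which expression changes after limb amputation are shared among 3 species of Ambystoma. Axolotl forelimbs were amputated at mid-zeugopod level, that is, in the lower arm. The distal 1 mm of mixed tissue was taken at once (0 h) or 24 h later, with 3 libraries at each time, each from tissue pooled over 5 larvae. The labels give no genetic change, agent or strain for any group, and no age beyond the larval stage. The libraries are taken as separate pools of larvae, so the pooling hides the spread between single animals. If some shared animals, p-values would measure a spread that is partly technical.

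A limb tip holds skin epidermis, connective tissue, cartilage, muscle, nerve, vessels and blood. In salamanders, epidermal cells close the cut surface soon after injury, blood cells enter, and a blastema of progenitor cells forms later. In vertebrate tissue the RNAs that fill most of a library usually come from few genes, such as those for ribosomal proteins, mitochondrial enzymes, keratins, collagens, muscle proteins and haemoglobins. None of these names can be given to a member here: 0 of the 138 IDs, and 0 of all axolotl IDs, were found in the RefSeq gene table of assembly UKY_AmexF1_1. The labelled tissue was therefore not checked against marker genes. In mixed tissue, fewer cells of a type and less RNA per cell cannot be told apart. CPM is not divided by length, so the ranks order the number of reads and not the number of RNA molecules.

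One library stood apart. The third 0 h library gave 31.18% of its counts to the feature set aside, against 20.44% and 21.84% in the other 0 h libraries and 15.31% to 17.66% at 24 h. Of the 138 members, 43 had their highest level of the 6 libraries in it and 27 their lowest. This count alone does not set it apart. The second 0 h library was highest for 39 and lowest for 32, and the second 24 h library for 6 and 41. Many of the results that rest on the third 0 h library are given with and without it. Library totals were 16827429 to 23412930 expected counts, and 13378181 to 19619156 without the feature set aside.

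The members' summed share of these remaining counts overlapped between the times. It was 35.2%, 34.1% and 34.5% in the 3 libraries at 0 h and 33.2%, 31.4% and 36.1% at 24 h. The 0 h mean was 34.6% ± 0.574 (SD, n = 3), and the 24 h mean was 33.6% ± 2.40 (SD, n = 3). Since these levels chose the members, the shares are a description. The features chosen by the same rule held 34.6% ± 2.54 and 31.7% ± 3.17 (SD, n = 3) at 0 h and 24 h in A. andersoni, and 46.2% ± 3.12 and 49.1% ± 8.55 (SD, n = 3) in A. maculatum, where features are not matched to those of the axolotl.

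Abundance was concentrated at the top of the list. The mean level ran from 22255 CPM at rank 1 to 1015 CPM at rank 138, with a median of 1501 CPM. The 5 most abundant members held 18.2% of the members' summed CPM, the first 20 held 44.3%, and 26 were needed for 50%. Only 3 members reached a mean of 10000 CPM, 15 reached 5000 and 45 reached 2000. Just inside the threshold, ranks 136 to 138 had means of 1020, 1018 and 1015 CPM. Just outside it, the next 3 features had means of 997.6, 996.3 and 989.9 CPM.

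Membership reflected both times unevenly. A mean of 1000 CPM was reached at 0 h by 128 of the 138 members and at 24 h by 110. Among all features other than the one set aside, 150 reached it at 0 h and 118 at 24 h, of which 100 reached it at both. Only 66 members stood at 1000 CPM or more in every one of the 6 libraries.

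**Figure D1:**
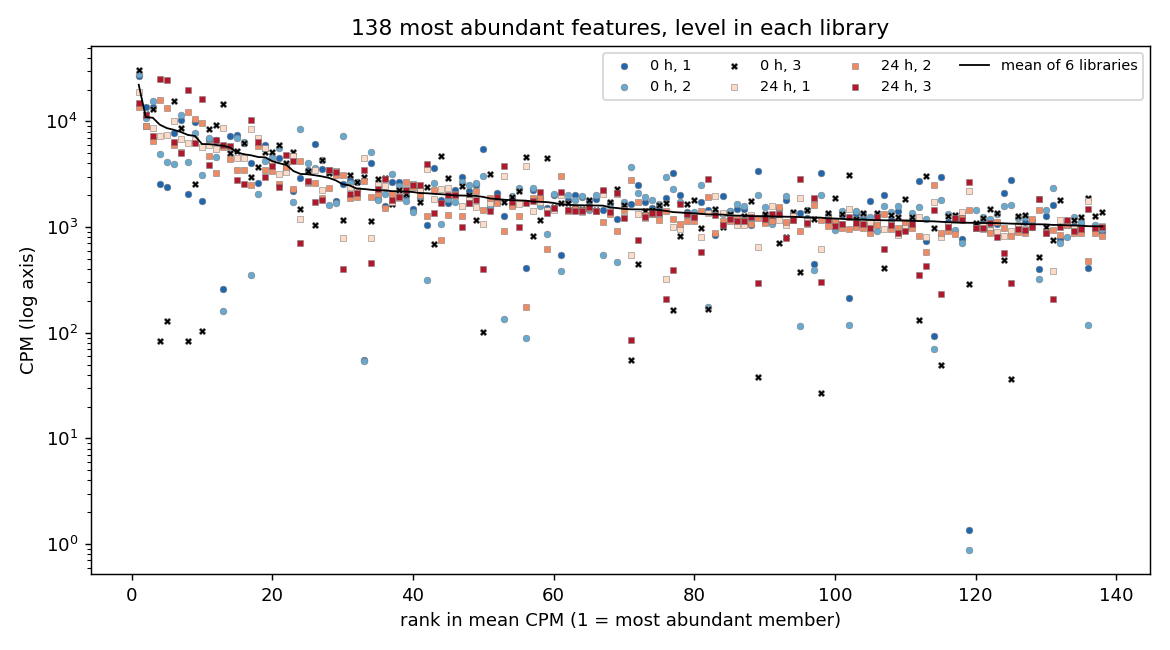
Level of each of the 138 members in each library, in CPM on a log axis, against rank in mean CPM. Circles are 0 h libraries 1 and 2, crosses the third 0 h library, squares the 24 h libraries, and the line is the mean of 6, which falls from 22255 to 1015 CPM. The crosses lie far below the line at ranks 4, 5, 8 and 10 and at several later ranks.

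Counting error was small for nearly all members. The lowest count that a member had in any library was 14580 in the median, which sets a counting error of 0.828%. It was below 10000 for 39 members and as low as 16 for rank 119. The spread between libraries was far larger: the median coefficient of variation over members was 24.8% among the 3 libraries at 0 h and 14.3% at 24 h. Without the third library it was 12.4% at 0 h (n = 2 libraries). Over all 42641 features that passed the filter on low counts, the medians were 47.4%, 32.0% and 20.3%. All 138 members passed that filter.

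The values also show that some members share reads with other features. An expected count that is not a whole number means that reads matching more than one feature were divided. A whole number does not show that no read matched another feature. Values were whole, to within 0.001, in all 6 libraries for 72 members (52.2%) and for 70.4% of all tested features. They were fractional in all 6 libraries for 37 members, whose levels are uncertain by the reads they trade. IDs that agree up to the last number belong to one component of the assembly. The members came from 126 components, 52 of them with no other feature listed in their component, and 10 components held 2 or more members, 22 in all.

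Between 0 h and 24 h, few members changed by the test used. Both times were set against each other in edgeR's quasi-likelihood test over all 42641 tested features, with Benjamini-Hochberg adjustment and a threshold of 0.05. It called 1 of 138 members (0.725%), which rose, where 1.29% of all tested features were called in either direction (1.21% higher and 0.075% lower). The share of called members was not above the background. At an unadjusted p under 0.05 there were 20 members (14.5%), 6 higher and 14 lower, against 17.4% of all tested features. Without the third 0 h library, 49 of 138 members and 13230 of 42641 tested features had an unadjusted edgeR p under 0.05.

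The called member was rank 129, Ax_TR508761_c0_g1, named because it was the only one. Its level was 403, 320 and 523 CPM at 0 h and 1850, 1437 and 1842 CPM at 24 h. Every 24 h library was well above every 0 h library, and the gap between the times was wider than the spread within each. The means were 416 ± 102 and 1710 ± 236 CPM (SD, n = 3). On the log2 scale it was 2.10 higher at 24 h (SE 0.30, edgeR adjusted p = 0.0395). Its counts were fractional in every library, although no other feature shares its component. Leaving out any 1 library other than the third 0 h library ended the call, with edgeR adjusted p of 0.0866 to 0.194, while the log2 fold change stayed between 1.95 and 2.31 in all 6 such fits. Without the third 0 h library the adjusted p was 0.00692.

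More members passed when the third 0 h library was left out: 17 of 138 (12.3%), 12 higher and 5 lower, where 9.83% of all tested features passed (7.8% higher and 2.03% lower). With DESeq2 on all 6 libraries 8 members passed (5.80%), 3 higher and 5 lower, where 8.47% of all tested features passed (6.24% higher and 2.23% lower), and 5 of these 8 were among the 17. DESeq2 without the third 0 h library called 37 of 138 members, 18 higher and 19 lower. This was a larger share than the 17.5% of features that passed (12.0% higher and 5.49% lower). Leaving out any 1 of the other 5 libraries, edgeR called 0 members and 0 features, with 6 to 14 members and 4396 to 6675 features at an unadjusted p under 0.05. With the same libraries left out, DESeq2 called 1 to 6 of the 135 to 138 members that had an adjusted p. It called 1087 to 2729 of the 42612 to 42627 features that had one.

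The typical member was slightly lower at 24 h. The median log2 fold change of the members was -0.24 (quartiles -0.38 and 0.14), and that of all tested features -0.09 (quartiles -0.58 and 0.54). For 89 members the change was smaller than 0.5 in size, and the median SE was 0.29. A log2 fold change of at least 1 was found in 16 members (11.6%) and one of -1 or below in 13 (9.42%), against 15.5% and 11.9% of all tested features.

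In CPM as used for the choice of members, 45 members (32.6%) had every 24 h library below every 0 h library, and 11 (7.97%) had every one above, where 11.9% and 14.1% of all tested features did so. This division depends on the scaling. With CPM on library sizes adjusted by the TMM method of edgeR, the scaling behind the test, 27 members (19.6%) were lower and 12 (8.70%) higher, against 11.2% and 14.7% of all tested features. Of the members that did not overlap, 69.2% were then lower, against 80.4% before. The drop was small for most of the 45, with a median log2 fold change of -0.29, and reached -0.5 or below for 12. These fold changes come from the edgeR fit with TMM scaling, not from the CPM that picked the 45. Without the third 0 h library 48.6% of members were lower and 15.9% higher with no overlap, against 26.5% and 25.3% of all tested features.

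The members were sorted into 4 classes by how far their libraries spread, a division made after the values were seen and used only to describe them. In the steady class, of 66 members, the highest library was at most 2 times the lowest. In the low class, of 13 members, each of the other 0 h libraries was more than 4 times the third 0 h library. In the high class, of 7 members, the third 0 h library was more than 4 times each of the others. The other 52 members met none of these. Among all tested features the low and high patterns were found in 12.8% and 6.63%, against 9.42% and 5.07% of members.

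**Figure D2:**
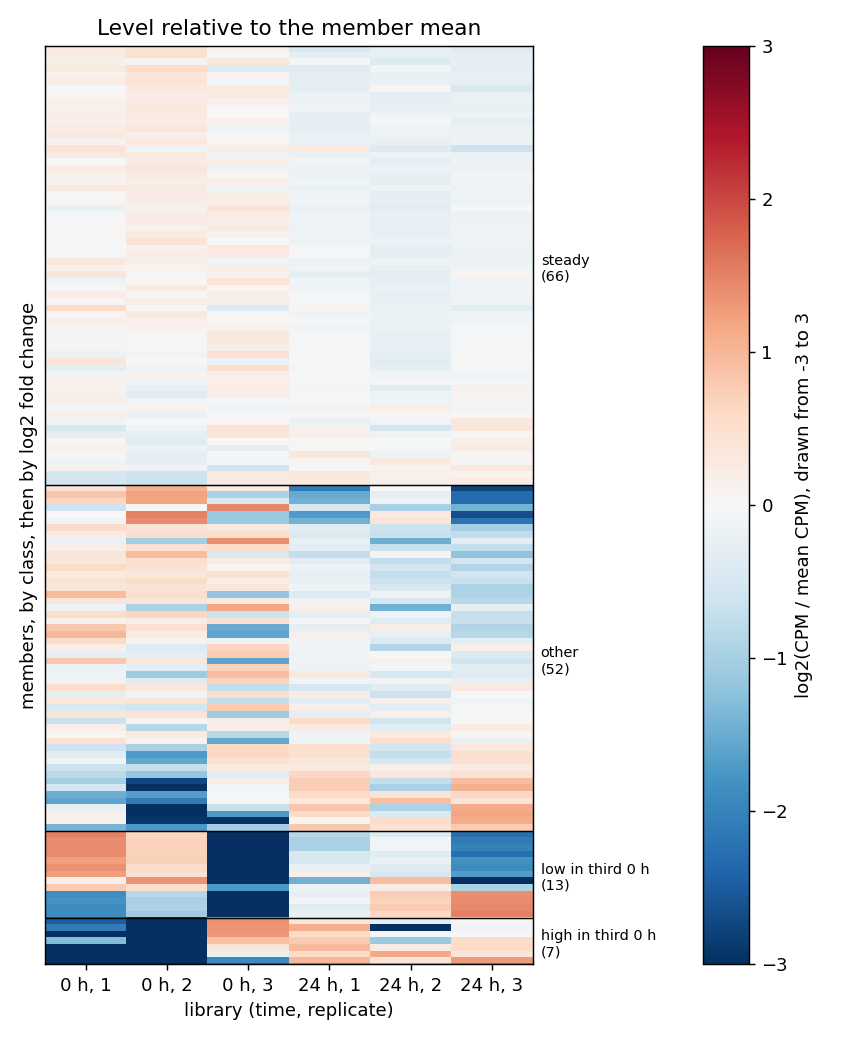
Level of each member in each library relative to its mean over the 6 libraries, as log2(CPM / mean CPM) with values beyond -3 and 3 drawn at those limits, one row per member. Rows are grouped by class, with 66, 52, 13 and 7 members from top to bottom, and within a class ordered by log2 fold change. The steady class is pale throughout, and the third 0 h library is the darkest column of the low class.

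The 66 steady members held 13.0%, 12.7% and 12.8% of the counts in the 0 h libraries and 11.3%, 10.5% and 11.5% in the 24 h libraries, counts of the feature set aside left out. On this scale, the one used to choose members, each 24 h library was below each 0 h library. On library sizes adjusted by TMM this order did not hold: the third 24 h library then stood above the first 0 h library. The difference between the times was not tested, since the class was chosen from the values. The median log2 fold change of the class was -0.23, ranging from -0.60 to 0.52. Of its 66 members, 34 did not overlap in the lower direction, or 16 with TMM scaling, and 1 in the higher direction with either. Over all tested features the shares were 11.9% and 11.2% lower, and 14.1% and 14.7% higher. These features were not chosen for a narrow spread, as the class was. The second most abundant member, Ax_TR487506_c3_g1, belongs here. It stood at 13829, 10713 and 11770 CPM at 0 h and 9080, 9146 and 11440 CPM at 24 h, and the times overlapped (log2 fold change -0.23, SE 0.28, edgeR adjusted p = 0.738). The narrowest range was at rank 128, from 1004 to 1201 CPM, a ratio of 1.20 between its highest and lowest library.

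The most abundant member, Ax_TR452551_c2_g5, had 27093, 28248 and 30720 CPM at 0 h and 18950, 13622 and 14897 CPM at 24 h. Every 24 h library was below every 0 h library. The means were 28687 ± 1853 and 15823 ± 2782 CPM (SD, n = 3), and the log2 fold change of -0.81 (SE 0.28) did not pass the test over all features (edgeR adjusted p = 0.21). With DESeq2 the adjusted p was 0.041.

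This member comes from a component of 15 listed features, 4 of which are members. The other 3 showed values of the same kind: rank 21 had a log2 fold change of -0.93 (SE 0.27), rank 27 of -0.98 (SE 0.25) and rank 47, Ax_TR452551_c2_g8, of -1.01 (SE 0.26), with edgeR adjusted p of 0.114 to 0.143. DESeq2 called all 3, with adjusted p of 0.0187, 0.00527 and 0.00867, so that this component held 4 of the 5 members that DESeq2 called lower. Together the 4 held 38041, 40764 and 43481 CPM at 0 h and 25968, 19344 and 20127 CPM at 24 h, with no overlap. Rank 47 went from 2688 ± 255 to 1293 ± 300 CPM (SD, n = 3). Reads may be traded by ranks 1, 27 and 47, which have fractional counts, while rank 21 had whole counts in every library. With the counts of the whole component summed before the fit, its log2 fold change was -0.85 (SE 0.27, edgeR adjusted p = 0.151). Ranks 27 and 47 were among the 17 members that passed without the third 0 h library, with edgeR adjusted p of 0.045 and 0.0368. The DESeq2 calls of lower members depended on single libraries. DESeq2 called 0 members lower without 0 h library 1, 0 h library 2 or 24 h library 3. It called 1 lower without 24 h library 1, 4 without 24 h library 2 and 19 without the third 0 h library.

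A like pattern was seen at rank 3, Ax_TR308274_c0_g1, which shares its component with no other feature and had whole counts in every library. It had 13811, 15470 and 13175 CPM at 0 h and 8736, 6472 and 7316 CPM at 24 h, again with no overlap. The means were 14152 ± 1185 and 7508 ± 1144 CPM (SD, n = 3), and the log2 fold change was -0.86 (SE 0.27, edgeR adjusted p = 0.172, DESeq2 adjusted p = 0.0289). Ranks 7, 11 and 55, from 3 components of one assembled cluster (TR473879), ranged from -0.80 to -0.56 in log2 fold change, all with no overlap and none past the threshold.

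Among members whose libraries did not overlap, the largest drop was at rank 76, Ax_TR484646_c3_g1. Its level was 1878, 2993 and 1705 CPM at 0 h and 326, 1420 and 208 CPM at 24 h. The second 24 h library stood well above the other 24 h libraries and just below the lowest at 0 h. The means were 2192 ± 699 and 651 ± 668 CPM (SD, n = 3), and the log2 fold change of -1.74 (SE 0.71) did not pass (edgeR adjusted p = 0.274, DESeq2 adjusted p = 0.134).

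**Figure D3:**
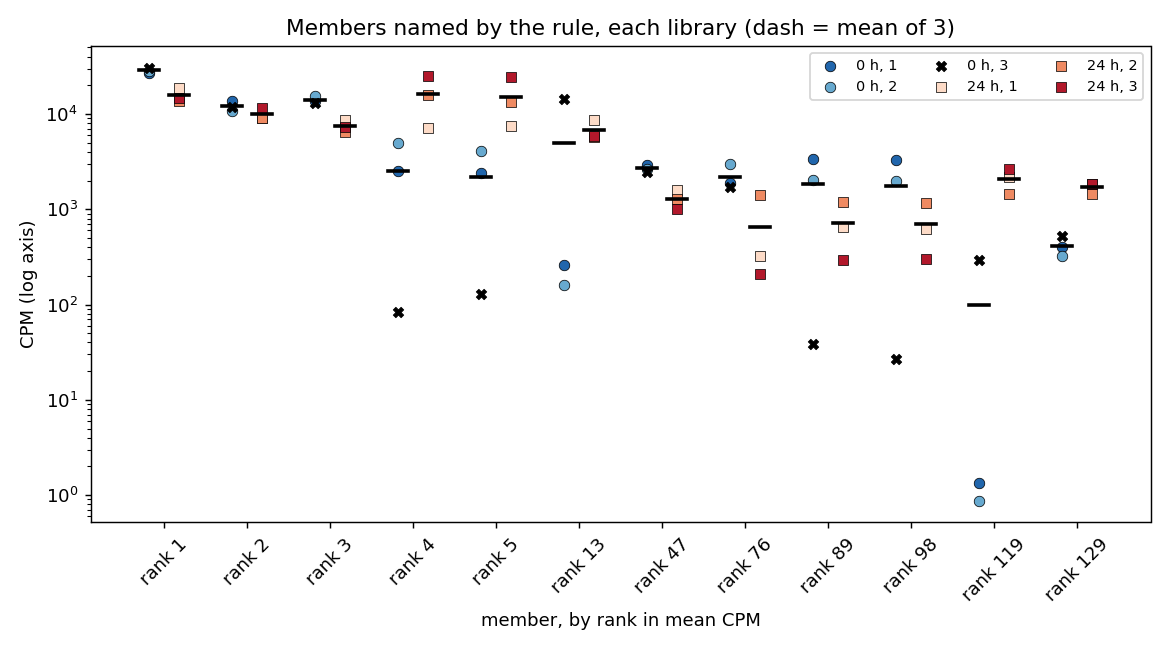
Level in each library, in CPM on a log axis, of the 12 members that the naming rule selected. Circles and crosses are 0 h libraries, squares 24 h libraries, and each dash is the mean of 3. At rank 129 every 24 h library (1437 to 1850 CPM) lies above every 0 h library (320 to 523 CPM), while at ranks 4 and 5 the third 0 h library lies far below the other 0 h libraries.

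Ranks 4, 5, 8 and 10 had nearly parallel values over the 6 libraries. Rank 4, Ax_TR538924_c0_g1, had 2545, 4932 and 84.2 CPM at 0 h and 7205, 15877 and 25243 CPM at 24 h. Rank 5, Ax_TR656570_c0_g1, had 2377, 4116 and 129 CPM at 0 h and 7423, 13282 and 24536 CPM at 24 h. In both, every 24 h library exceeded every 0 h library, but the libraries of a time differed by several fold and the third 0 h library was far below all others.

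Summed, the 4 members took 0.872%, 1.63% and 0.04% of the counts in the 0 h libraries and 2.67%, 5.13% and 8.57% at 24 h. Their log2 fold changes were between 2.69 and 2.86, with SE of 1.08 to 1.23, and none passed (edgeR adjusted p of 0.255 to 0.313). For rank 5 the change was 2.31 without the third 0 h library, with an edgeR adjusted p of 0.0576. With no filter on low counts all 4 passed (edgeR adjusted p of 6.35e-07 for rank 5), as did 17 members in all, 13 higher and 4 lower. Of all features in that fit 0.497% passed (0.361% higher and 0.136% lower). These were 656780 features, most of them too low in counts to pass the filter, so their share is not a like background for abundant members. A low p in that fit did not require libraries of a time to lie close together. Rank 119, with 24, 16 and 3909 counts at 0 h, had an edgeR adjusted p of 2.95e-19. Of members whose 0 h libraries lay much closer together than that, ranks 1 and 3 had 0.565 and rank 129 had 0.00033. Ranks 4 and 8 had whole counts in all libraries, so their values give no sign of divided reads. The ratio of rank 5 to rank 10 stayed between 1.25 and 1.51 over the 6 libraries, and that of rank 4 to rank 8 between 1.00 and 1.28. These were the closest pairs of the set, and the widest, rank 4 to rank 10, ran from 0.82 to 1.63. Ranks 5 and 10 both had fractional counts.

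Parallel values were not limited to these 4. Of the 29 members whose highest library was more than 10 times the lowest, 17 fell into 6 sets in which a member's ratio to at least 1 other of the set varied by at most 2 times over the libraries. These sets were found by searching the values and are a description. The largest, ranks 50, 89, 98, 115 and 125, had a summed share of 1.80%, 1.04% and 0.0253% at 0 h and 0.408%, 0.551% and 0.153% at 24 h. The first and second 0 h libraries were above every 24 h library, and the third was below them all. Of these 5, ranks 89 and 98 belong to 1 component with fractional counts, in which reads can be traded.

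**Figure D4:**
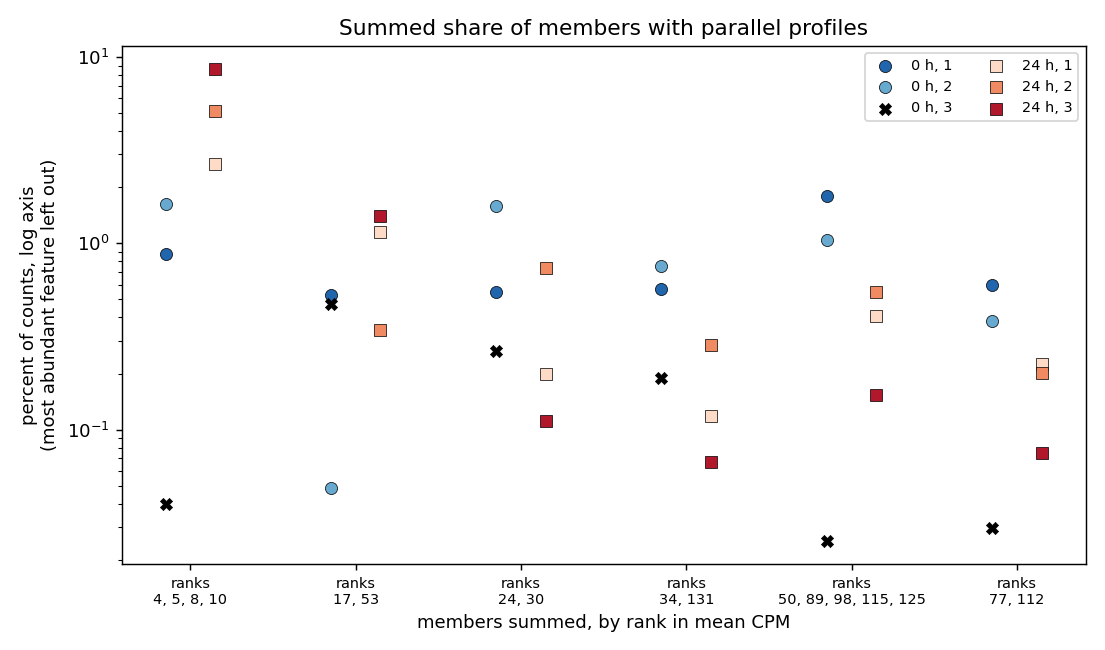
Summed share of counts, in percent on a log axis with the feature set aside left out, of the 6 sets of members with parallel values, in each library. Circles and crosses are 0 h libraries and squares 24 h libraries. The set of ranks 4, 5, 8 and 10 reaches 8.57% in the third 24 h library and 0.04% in the third 0 h library, and 2 further sets, ranks 50, 89, 98, 115 and 125 and ranks 77 and 112, are also lowest in the third 0 h library.

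All 13 members of the low class together made up 3.69%, 3.64% and 0.145% of the counts at 0 h and 3.49%, 6.33% and 8.88% at 24 h. Within it, the 4 parallel members had log2 fold changes above 0 and the other 9 below 0, with and without the third 0 h library. Of the 13, 1 passed without that library, rank 50, which was lower at 24 h (log2 fold change -2.09, edgeR adjusted p = 0.0471). With all 6 libraries the log2 fold change of rank 50 was -1.52 (SE 1.13, edgeR adjusted p = 0.562). Ranks 98 and 89 were lowest in the third 0 h library relative to the mean of the other 0 h libraries, at ratios of 0.0102 and 0.0142.

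The 7 members of the high class made up 0.145%, 0.0611% and 2.83% of the counts at 0 h and 2.41%, 1.40% and 1.79% at 24 h. The third 0 h library thus held more of them than any 24 h library, and the other 0 h libraries held less. Ranks 119 and 13 had the highest ratios of the third to the mean of the other 0 h libraries, 261.8 and 69.0. With all 6 libraries none of the 7 had an unadjusted p under 0.05, and without the third 0 h library 5 of the 7 passed, all higher at 24 h. The class was chosen by that library, so the gain in calls on leaving it out follows in part from the choice.

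Rank 119, Ax_TR453235_c3_g1, had the largest log2 fold change of the members. It had 24, 16 and 3909 counts at 0 h, or 1.36, 0.874 and 292 CPM, and 2203, 1449 and 2655 CPM at 24 h. Every 24 h library was above every 0 h library, and the third 0 h library, though below them, was far above the other 0 h libraries. The log2 fold change was 4.47 (SE 2.07, edgeR adjusted p = 0.332, DESeq2 adjusted p = 0.0458), and 10.96 (SE 0.57, edgeR adjusted p = 0.00226) without the third 0 h library. Rank 13 had 261, 160 and 14520 CPM at 0 h and 8716, 5711 and 5950 CPM at 24 h, so that its times overlapped through the third 0 h library alone. Its log2 fold change was 0.48 (SE 1.50, edgeR adjusted p = 0.907) with that library and 5.08 (edgeR adjusted p = 0.00316) without it. Leaving out 0 h library 1 or 2 instead gave -0.08 and -0.09.

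**Figure D5:**
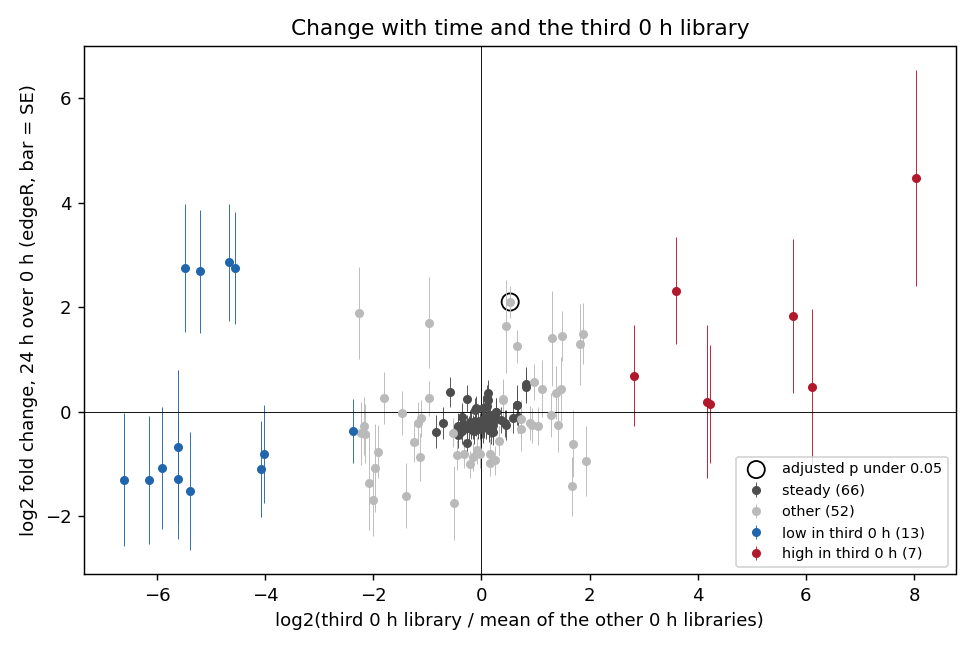
Log2 fold change of each member, 24 h over 0 h, with its SE as a bar, against the log2 ratio of its level in the third 0 h library to the mean of the other 0 h libraries, coloured by class. The steady members gather near the origin, the members of the low and high classes have long bars, and the single called member (ring) has a log2 fold change of 2.10.

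Of the 52 members in none of these classes, rank 18 was higher at 24 h with no overlap. It had 2637, 2059 and 3701 CPM at 0 h and 7038, 5842 and 6345 CPM at 24 h. The log2 difference was 1.25 (SE 0.31, edgeR adjusted p = 0.106). It passed without the third 0 h library (edgeR adjusted p = 0.0153) and with DESeq2 (adjusted p = 0.0087). With no filter on low counts it did not pass (edgeR adjusted p = 0.255). Ranks 61 and 97 were also higher without overlap, at log2 fold changes of 1.50 (SE 0.59) and 1.46 (SE 0.48). With all libraries and the filter, neither passed (edgeR adjusted p = 0.256 and 0.187, DESeq2 adjusted p = 0.139 and 0.0705). Both passed the edgeR test where the third 0 h library was left out. They also passed with no filter on low counts, a fit in which a low p did not require a narrow spread. Why the third 0 h library differed was not tested.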

How the data were processed

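RNA libraries were made with an Illumina TruSeq kit, and the sequencing aimed at about 50000000 read pairs of 100 bp per library, per the labels. The authors deposited expected counts for each feature, estimated by RSEM according to the sample descriptions, in 1 table per species. The RSEM version, the aligner, the assembly and the use of strand were not given in the sources used here. No column of values was left unmapped.

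Counts were rounded and tested in edgeR 4.0.16 (R 4.3.3, quasi-likelihood, older method, TMM, time as the only term). filterByExpr used a minimum count of 10 and a minimum total of 15. SE is the size of the log2 fold change divided by the root of F. The script was tested on simulated data in which all features had the same spread and no library stood apart. That check does not show how the test behaves with the third 0 h library. DESeq2 1.42.0 was an alternative, in which 2 members had no adjusted p. Levels are CPM without the most abundant feature.

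The members, lists and tests were chosen with earlier results of these data known. Named by ID are the 5 most abundant members and, as fewer than 2 passed in each direction, the 2 largest rises and 2 largest falls among members whose times did not overlap. Others, by rank, are those nearest the threshold, those most extreme in the third 0 h library and those sharing a component. Ranks 18, 50, 61, 97 and 128, the parallel sets and the cluster of ranks 7, 11 and 55 were added after their values were seen. Replicate numbers follow accession order and pair nothing. Counting errors cover the sampling of reads only: PCR copies of 1 molecule may have been counted as several.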

Additional observations from a re-analysis of the deposited data

How the results depend on the processing

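The count of called members depended on the test, the filter and single libraries. It was 1 with the newer quasi-likelihood method, DESeq2 size factors, totals without the most abundant feature, a mean of at least 5 CPM or counts summed per component, 8 with DESeq2 and 17 with no filter. Leaving out 1 library gave 0 to 17 members and 0 to 4193 features with edgeR, and the higher value without the third 0 h library alone. Chosen after seeing the data, DESeq2 gave 3, 5 and 37 members (1601, 2239 and 7449 features) without 0 h libraries 1, 2 and 3, and 2, 6 and 1 members (1763, 2729 and 1087 features) without each 24 h library in turn. The newer method gave 17 members and 4562 features without the third 0 h library, and otherwise 0 members and 0 to 34 features. With all libraries the newer method called 1003 features, DESeq2 3600 and no filter 3263, against 549.

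The median log2 fold change of members was -0.30 with totals without the most abundant feature, -0.30 as a ratio of mean CPM and -0.19 when only features of at least 5 CPM entered the fit (an alternative added later), against -0.24. Leaving out 1 library gave -0.27 to -0.16. It stayed below 0 in every setting run, while that of all tested features was 0.04 without the third 0 h library.

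Of the 138 members, 56 did not overlap (11 higher and 45 lower), and 39 with TMM scaling (12 higher and 27 lower). With 1 library left out there were 58 to 89, between 11 and 22 higher and between 47 and 67 lower. Over all 42641 tested features, 6002 were higher and 5054 lower with no overlap. With 1 library left out there were between 6899 and 10798 higher and between 5555 and 11305 lower. Leaving out a library can only keep or raise such counts, for members and for all features, so a rise in itself shows nothing. A minimum of 500 CPM gave 256 members, one of 2000 CPM 45, one of 1000 CPM in every library 66 and totals with the most abundant feature 93. With those totals the summed share of the 93 was 2.13 points higher at 24 h, against -1.01 for the 138. That setting changed both the totals and the members, and the share of the most abundant feature was itself lower at 24 h. The difference was -1.55 points for members of at least 500 CPM and 0.71 points, with the opposite sign, for those of at least 2000 CPM. Leaving out 1 library gave -2.29 to 0.09 points, the only value above 0 being that without 24 h library 2.

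Of the 23 members followed through 12 settings each, 1 turned its direction. That was rank 13, at 0.48 with all libraries. With 1 library left out it ran from -0.093 (without 0 h library 2) to 5.08 (without the third 0 h library), and was at -0.084 without 0 h library 1. The 23 were named by rule or for their values, many for large changes, and do not stand for all 138. Among all 138 members, leaving out the third 0 h library alone changed the sign of 14. No paired analysis was possible because replicate numbers are only names.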
